A study of Gasterosteus aculeatus with 60 samples.

Results

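The control telencephalon series held 15 of the 60 libraries of the study and described what the forebrain of male threespined sticklebacks (Gasterosteus aculeatus) expressed after an event with no social content. Its members were the count columns for telencephalon of control fish, 5 fish at each of 30, 60 and 120 minutes. The fish were adult males from the Putah Creek freshwater population, each kept singly and in the territorial phase of nesting. Control males saw an empty flask placed in the tank for 5 minutes, and time was counted from the introduction of the flask. Each fish was killed at 1 time only, so the 3 times are 3 sets of different fish, and time since the flask cannot be told apart from collection order or hour of day, which the labels do not give. Challenged males, used below only beside the control values, met a smaller intruder male confined in the same kind of flask. Diencephalon was taken from the same heads. Poly-A RNA was sequenced from each region of each fish.

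The telencephalon of a ray-finned fish holds the pallium and subpallium, which serve learning, memory and the control of social behavior. When neurons fire, calcium and cAMP signalling switches on a first set of genes within minutes, without new protein synthesis. These immediate early genes encode transcription factors of the FOS and JUN families (which pair to form AP-1), zinc finger factors of the EGR family, the neuronal factor NPAS4 and the NR4A orphan nuclear receptors, and their mRNAs decay quickly once the stimulus ends. Genes called effectors here encode proteins that act on synapses, channels, signalling, DNA demethylation, mRNA decay or NF-kappa-B. The lists of activity-regulated genes, clock genes, corticosteroid targets and cell type markers used below could hold only genes that the study's gene tables name. Many of these genes stand in the tables because they responded to the challenge in these same fish, so no list is independent of the data.

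Total counts ran from 24377995 to 49230351 at 30 minutes, from 20042341 to 36453851 at 60 minutes and from 18178450 to 30170571 at 120 minutes, so the 30 minute libraries were on the whole deeper. Levels are given as cpm, the read count relative to library size after TMM scaling. Telencephalon identity genes, mostly transcription factors such as emx3 and tbr1b, summed to 1492 to 1960 cpm in all 15 libraries, and 25 of 27 could be tested. Single libraries stood apart by genes of other tissues. In fish 12 (30 minutes), markers of diencephalon and midbrain summed to 1040 cpm, against 26.3 to 226.5 cpm in the other 14. Each list sum, here and below, covers only the members that could be tested, 18 of 43 for diencephalon and midbrain. A gene at 1 cpm or more in fish 12 alone would not be among them. Of the tested members, the neuropeptide genes avp and oxt, whose values are given below, made up most of the sum of fish 12. In fish 17 (30 minutes), epithelial and skin genes summed to 1877 cpm, against 210.1 to 593.2 cpm elsewhere. In fish 8 (60 minutes), genes of microglia and leukocytes summed to 2267 cpm, against 375.6 to 1078 cpm elsewhere. In fish 35 (60 minutes), photoreceptor and retina genes summed to 1845 cpm, against 30.0 to 253.8 cpm elsewhere. Counts over lists are also given without these 4 libraries, an alternative chosen after seeing the data. In whole tissue, fewer cells of a type and less RNA per cell cannot be told apart.

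**Figure D1:**
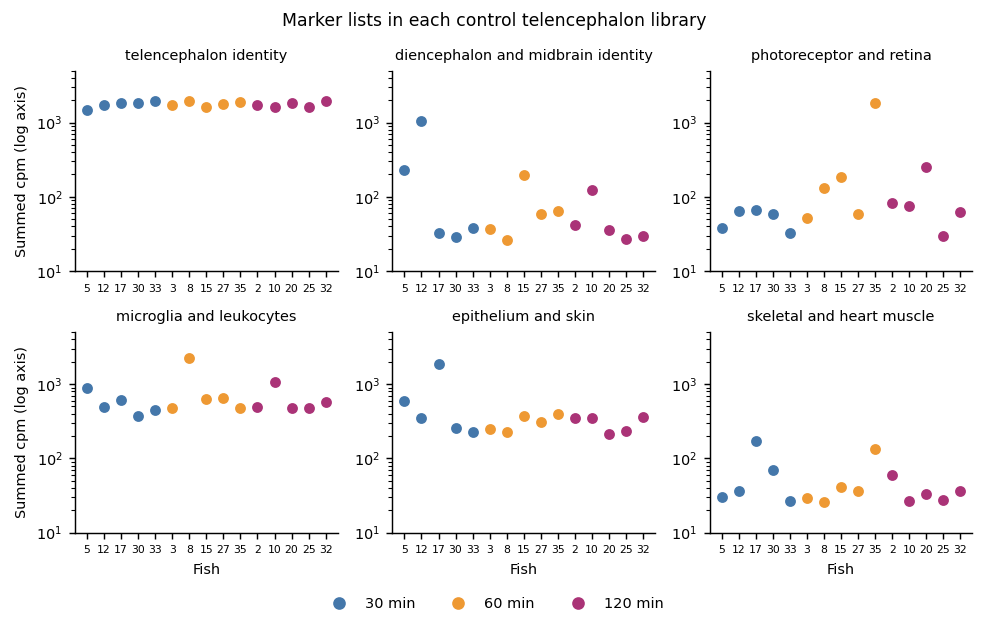
Summed cpm (log axis) of the tested members of 6 marker lists in each of the 15 control telencephalon libraries, 1 point per fish, ordered by time and coloured by time. Telencephalon identity stayed between 1492 and 1960 cpm, while fish 12, 35, 8 and 17 stood highest for diencephalon and midbrain, photoreceptor, leukocyte and epithelial genes. Most of the diencephalon and midbrain sum of fish 12 came from avp and oxt.

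No gene passed the threshold in any comparison of 2 times. At an adjusted p under 0.1 (edgeR quasi-likelihood test, Benjamini-Hochberg over the 3 comparisons at once), 0 of 17082 genes, 0%, were called for 120 against 30 minutes, for 60 against 30 and for 120 against 60. The smallest adjusted p was 0.287, 0.312 and 0.312 in turn. At an unadjusted p under 0.05 there were 649, 2042 and 1476 genes. In the fit without the 4 libraries that stood apart, 411 genes were higher and 546 lower for 120 against 30 minutes, 531 and 579 for 60 against 30, and 492 and 686 for 120 against 60. The joint test of any difference among the 3 times also called 0 genes, with 1488 at an unadjusted p under 0.05 and a smallest adjusted p of 0.162. The library index was unevenly spread, with 1 index on 1, 2 and 3 libraries of the 3 times, and with the index in the model the count was still 0 in each comparison. DESeq2 called 22, 69 and 41 genes for the 3 comparisons, and edgeR's likelihood ratio test with tagwise dispersion, the approach of the study's methods, called 7, 9 and 7. The values that follow therefore describe levels in these fish, and counts of list members use the unadjusted p. The comparisons share groups of fish, so they are not independent of each other. Whether the counting used the strand is not given in the sources used here, so reads of a gene and of one on the opposite strand may be mixed.

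The gene with the smallest p of all for 120 against 30 minutes was the immediate early gene fos (ENSGACG00000010476, group XVIII, 10338805 to 10341156, minus strand, Ensembl release 75), which encodes the FOS part of AP-1. Levels are listed here and below in the order of fish 5, 12, 17, 30 and 33 at 30 minutes, fish 3, 8, 15, 27 and 35 at 60 minutes, and fish 2, 10, 20, 25 and 32 at 120 minutes. The 5 fish at 30 minutes had 30.4, 31.8, 25.9, 32.9 and 27.7 cpm. The 5 fish at 60 minutes had 27.2, 30.0, 27.8, 35.1 and 22.8 cpm. The 5 fish at 120 minutes had 15.0, 18.1, 17.4, 20.3 and 15.1 cpm. Every fish at 120 minutes lay under every fish at both earlier times, while the 30 and 60 minute fish overlapped. The means were 29.7 ± 2.9, 28.6 ± 4.49 and 17.2 ± 2.22 cpm (SD, n = 5 each). The log2 fold change was -0.79 (SE 0.11) for 120 against 30 minutes, with an unadjusted p of 5.59e-06 and an adjusted p of 0.287 by edgeR. Against 60 minutes it was -0.73 (SE 0.11), with an adjusted p of 0.312, and between 30 and 60 minutes it was -0.05 (SE 0.11). A two-sided exact permutation test gave p = 0.00794 for 120 against either earlier time, the smallest p that 5 against 5 allows, and 0.603 for 60 against 30. Because fos was picked by its p in these same fish, the permutation p is not independent support. All 120 minute fish lay under all 30 minute fish in 0.457% of all genes, and under all 60 minute fish in 0.662%. Adjusted within its own comparison, fos reached 0.0955 for 120 against 30 minutes. Without fish 35 it reached 0.0825 over the 3 comparisons, and over all 24 alternatives its adjusted p ran from 9.42e-06 to 0.497 with a log2 fold change between -0.86 and -0.74. Without the 4 libraries that stood apart the log2 fold change was -0.82.

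EGR4 (1 of 2), which encodes a zinc finger transcription factor of the EGR family, followed a different course, with its highest levels at 60 minutes. It had 15.5, 17.0, 14.9, 21.5 and 18.8 cpm at 30 minutes, 23.5, 19.9, 19.3, 27.8 and 30.1 cpm at 60 minutes and 12.6, 13.9, 16.5, 15.9 and 11.7 cpm at 120 minutes. All fish at 120 minutes lay under all fish at 60 minutes. The log2 fold change was -0.77 (SE 0.14) for 120 against 60 minutes (adjusted p = 0.425, edgeR) and 0.46 (SE 0.14) for 60 against 30. The second copy, EGR4 (2 of 2), from which reads may be split, gave -0.25 (SE 0.11) for 120 against 60 minutes. egr2b, a low-level member of the same family, had 0.951, 1.17, 0.922, 1.49 and 1.05 cpm at 30 minutes, 1.71, 1.89, 2.03, 4.94 and 1.76 cpm at 60 minutes and 0.643, 1.04, 0.757, 0.468 and 1.10 cpm at 120 minutes. All 60 minute fish lay above all others, and fish 27 was far above the other 4. Its log2 fold change was 1.14 (SE 0.33) for 60 against 30 minutes and -1.62 (SE 0.34) for 120 against 60.

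Both JUN family partners of FOS that stood out were also highest at 60 minutes. junba had 15.2, 19.2, 18.0, 18.6 and 19.1 cpm at 30 minutes, 20.6, 37.4, 20.1, 24.8 and 22.3 cpm at 60 minutes and 19.7, 15.5, 18.0, 15.0 and 12.4 cpm at 120 minutes. Its 60 minute fish lay above all other fish, and the highest was fish 8, the fish with high leukocyte genes. jund had 18.7, 23.1, 17.1, 18.7 and 17.5 cpm at 30 minutes, 22.8, 21.7, 23.8, 25.5 and 25.6 cpm at 60 minutes and 18.4, 19.6, 19.6, 17.6 and 18.4 cpm at 120 minutes. The 60 and 120 minute fish did not overlap, and the fold change was small but with little spread, at -0.35 (SE 0.08) on the log2 scale. npas4a, a factor that only neurons switch on and that shapes inhibitory synapses, looked like fos rather than EGR4: it had 36.1, 34.8, 29.9, 38.9 and 27.7 cpm at 30 minutes, 36.4, 25.3, 35.5, 47.3 and 25.1 cpm at 60 minutes and 20.3, 23.4, 23.0, 31.9 and 16.3 cpm at 120 minutes. Its groups overlapped, and the log2 fold change was -0.54 (SE 0.19) for 120 against 30 minutes and -0.56 (SE 0.19) for 120 against 60. Of the orphan nuclear receptors, nr4a1 had 11.7, 8.07, 8.16, 16.2 and 7.71 cpm at 30 minutes, 11.6, 10.7, 16.5, 25.7 and 6.78 cpm at 60 minutes and 5.87, 7.36, 4.98, 7.12 and 5.32 cpm at 120 minutes. All fish at 120 minutes lay under all fish at 30 minutes, and its log2 fold change for 120 against 60 was -1.21 (SE 0.31). The gene listed as NR4A1 gave -0.66 (SE 0.17) for the same comparison.

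**Figure D2:**
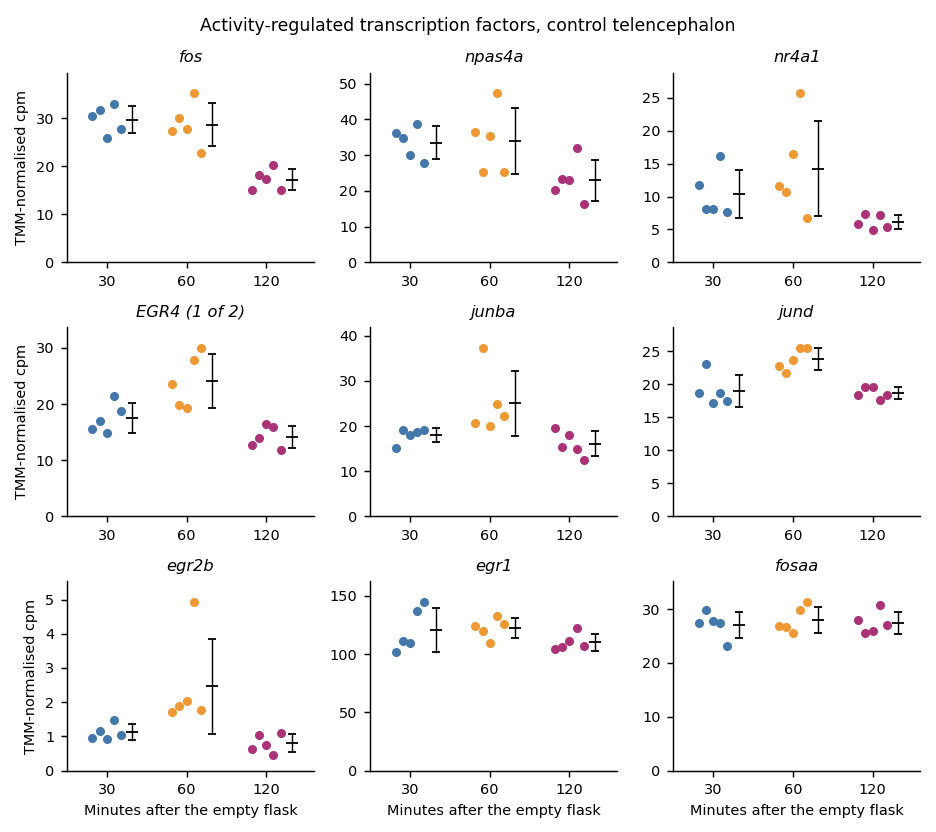
TMM-normalised cpm of 9 activity-regulated transcription factors in control telencephalon at 30, 60 and 120 minutes after the empty flask, 1 point per fish, with the mean and SD of 5 fish beside each group. The fos fish at 120 minutes (15.0 to 20.3 cpm) sit under all others, EGR4 (1 of 2), junba, jund and egr2b peak at 60 minutes, and egr1 and fosaa are nearly level.

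As a list, the activity-regulated transcription factors had a median summed level of 660 cpm at 30 minutes, 761.9 cpm at 60 minutes and 579 cpm at 120 minutes. All 23 were measured and tested. For 120 against 60 minutes, 14 were lower at an unadjusted p under 0.05 and 0 higher, beside 4.79% lower and 3.85% higher over all genes tested. Their median log2 fold change was -0.41, beside -0.01 over all genes, and all 23 fitted values were negative. In 5 of the 23 all 120 minute fish lay under all 60 minute fish, beside 0.662% of all genes. For 120 against 30 minutes, 5 were lower and 0 higher, beside 2.22% lower and 1.57% higher over all genes, with a median of -0.17 against -0.01. These 5 were fos, npas4a, nr4a1, cebpd and EGR4 (1 of 2), and in 2 of the 23 (fos and nr4a1) the groups did not overlap, beside 0.457% of all genes. For 60 against 30 minutes, 5 were higher and 0 lower, beside 5.61% higher and 6.34% lower over all genes, with a median of 0.24. The median level was highest at 60 minutes and lowest at 120 in 12 of the 23, against 18.0% of all genes. In the 11 libraries left without the 4 that stood apart, 22 were tested. Of these, 13 were lower at 120 than at 60 minutes and 6 lower than at 30. Over all 16879 genes of that fit, 686 and 546 were lower in turn.

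Further members also had fitted values below their 60 minute level. fosb, whose protein accumulates with repeated neuronal activity, had 20.6, 13.3, 16.5, 15.2 and 12.2 cpm at 30 minutes, 31.6, 15.7, 21.4, 25.0 and 12.6 cpm at 60 minutes and 16.3, 14.5, 15.0, 15.7 and 7.52 cpm at 120 minutes. Its groups overlapped, with fish 32 far under the other 120 minute fish, and the log2 fold change for 120 against 60 minutes was -0.62 (SE 0.25). The gene listed as NR4A1 had 12.8, 16.3, 13.9, 12.4 and 15.1 cpm at 30 minutes, 18.2, 15.8, 18.8, 23.1 and 13.5 cpm at 60 minutes and 11.0, 9.71, 14.4, 13.4 and 7.85 cpm at 120 minutes. nr4a3, another orphan receptor of the family, had 32.4, 22.9, 21.0, 19.6 and 15.5 cpm at 60 minutes and 16.6, 16.1, 18.3, 18.1 and 14.7 cpm at 120 minutes. Its log2 fold change was -0.41 (SE 0.19) against 60 minutes and -0.16 (SE 0.19) against 30. junbb, the other JUNB gene, gave -0.25 (SE 0.12) for 120 against 60 minutes with an unadjusted p of 0.0639.

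The members rested on different fish. At 60 minutes fish 27 had the highest value in 9 of the 23 genes (npas4a, nr4a1 and fos among them), and fish 8 in 4. At 120 minutes fish 25 was highest in 11. fosl1a and cebpb were high in 1 library only: fish 8 had 5.24 cpm of fosl1a, with 0.542 to 0.859 cpm in the other 4 fish at 60 minutes, and 49.5 cpm of cebpb, a factor of inflammatory as well as neuronal responses, with 3.59 to 7.34 cpm in the other 4. Without the 4 libraries that stood apart, the log2 fold change of cebpb for 120 against 60 minutes was -0.47, where it was -1.96 with them. The part that the leukocyte RNA of fish 8 has in these values was not tested. cebpd, a related factor, had 57.3, 25.0, 44.8, 35.9 and 46.5 cpm at 30 minutes, 51.1, 43.6, 50.8, 57.2 and 28.4 cpm at 60 minutes and 25.8, 31.3, 21.4, 34.8 and 31.0 cpm at 120 minutes. Its groups overlapped, and the log2 fold change for 120 against 60 minutes was -0.68 (SE 0.22).

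Other members had fold changes near 0 for 120 against 30 minutes with all 15 libraries. egr1, a widely used activity marker in fish brain, had 102, 111, 110, 137 and 145 cpm at 30 minutes and 105, 106, 111, 123 and 107 cpm at 120 minutes. The groups overlapped, with a log2 fold change of -0.13 (SE 0.09) and an unadjusted p of 0.171. Without the 4 libraries that stood apart egr1 was at -0.21 (unadjusted p = 0.0759, edgeR). fosaa, another FOS gene, gave 0.02 (SE 0.08) on the same scale, egr3 0.17 (SE 0.14), fosl2 0.06 (SE 0.13) (-0.08 without the 4 libraries that stood apart) and jun 0.04 (SE 0.09). Their SEs ran from 0.08 to 0.14, so differences of about that size, as for egr1 and egr3, could not be told from none. klf4 and egr2a were more variable, with SEs of 0.40 and 0.20.

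The 9 effectors depended more on single fish. For 120 against 60 minutes 5 were lower and 0 higher at an unadjusted p under 0.05, beside 4.79% and 3.85% of all genes, with a median log2 fold change of -0.33. Without the 4 libraries that stood apart 1 was lower and 1 higher, beside 686 and 492 of 16879 genes, with a median of -0.19. Without fish 8 alone 1 was lower, and the share over all genes was not counted in that refit. gadd45g, which encodes a stress and DNA demethylation factor, had 48.7, 35.0, 44.6, 28.7 and 31.2 cpm at 30 minutes, 30.9, 31.9, 26.7, 56.7 and 36.5 cpm at 60 minutes and 23.0, 25.8, 24.5, 32.4 and 27.4 cpm at 120 minutes. Its groups overlapped, with a log2 fold change of -0.50 (SE 0.19) for 120 against 30 minutes. gem, a small GTPase that restrains calcium channels, gave -0.31 (SE 0.13) for 120 against 30 minutes and -0.33 (SE 0.13) for 120 against 60. nfkbiaa, which encodes an inhibitor of NF-kappa-B, was at 82.1 cpm in fish 8 and at 25.8 to 33.0 cpm in the other 60 minute fish. nptx2b, which encodes a secreted pentraxin that gathers glutamate receptors, was at 92.2 cpm in fish 12 and at 1.64 to 7.98 cpm in the other 30 minute fish. zc3h12a, which encodes a ribonuclease that ends inflammatory mRNAs, had 10.0, 4.13, 9.45, 7.46 and 9.65 cpm at 30 minutes, 10.4, 15.5, 13.0, 11.1 and 9.42 cpm at 60 minutes and 8.40, 10.3, 4.50, 3.68 and 8.12 cpm at 120 minutes. Its log2 fold change for 120 against 60 minutes was -0.77 (SE 0.29), and -0.72 without the 4 libraries. REM2 (1 of 2), an activity-induced GTPase gene that limits dendrite growth, had 102, 98.9, 112, 97.1 and 97.3 cpm at 30 minutes, 126, 138, 96.9, 105 and 139 cpm at 60 minutes and 105, 86.7, 109, 108 and 104 cpm at 120 minutes. Fish 10 was lowest of all, and the log2 fold change for 120 against 60 minutes was -0.24 (SE 0.10). HOMER1 (2 of 2), a postsynaptic scaffold gene, gave 0.19 (SE 0.16) for 120 against 60 minutes.

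**Figure D3:**
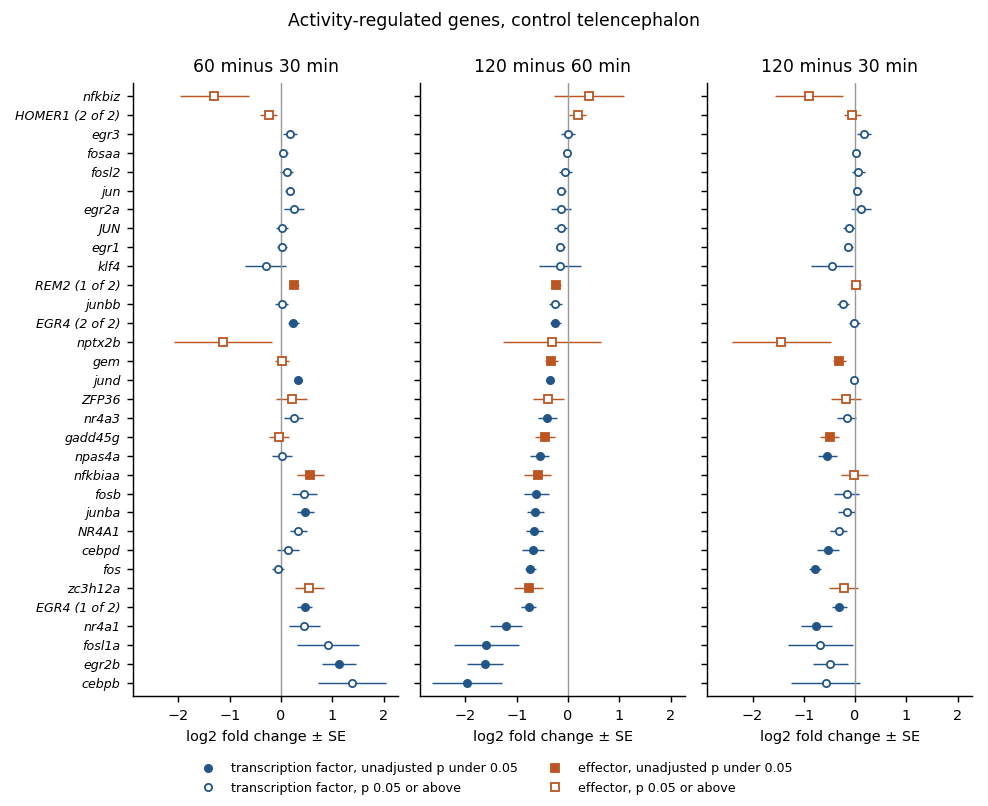
Fitted log2 fold changes with SE of the 23 activity-regulated transcription factors (circles) and 9 effectors (squares) in control telencephalon for each pair of times, filled where the unadjusted p was under 0.05. All 23 transcription factors lie under 0 for 120 minus 60 minutes, 14 of them filled, and none passed the threshold on adjusted p.

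In 2 other timed programs few genes stood out. The 11 genes of the circadian clock and its output, which follow light and hour of day, had 0 members at an unadjusted p under 0.05 for 120 against 30 minutes, and their median log2 fold change was -0.08. Over all genes 1.57% were higher and 2.22% lower. Leaving out the 4 libraries that stood apart, 1 was higher and 0 lower, beside 411 and 546 of 16879 genes. For 120 against 60 minutes 1 was higher and 1 lower, beside 3.85% and 4.79% of all genes. Without the 4 libraries these counts were 0 and 0. With all libraries the higher gene was clock, the transcription factor at the head of the loop, at 0.30 (SE 0.13). The lower was rorb, a nuclear receptor of the loop, at -0.37 (SE 0.17). clock had 60.8, 70.5, 68.1, 78.0 and 82.9 cpm at 30 minutes, 70.9, 70.1, 58.0, 53.1 and 41.7 cpm at 60 minutes and 69.0, 66.8, 71.6, 73.1 and 81.8 cpm at 120 minutes, and the groups overlapped. arntl2, a gene of the clock partner family, gave 0.47 (SE 0.22) for 120 against 30 minutes (unadjusted p = 0.0520). The 8 corticosteroid receptors and targets, which respond to the stress hormone cortisol, had 0 members at an unadjusted p under 0.05 for 120 against 30 minutes. Their median log2 fold change was -0.24, beside -0.01 over all genes, and 7 of the 8 values were negative. The median was -0.31 without the 4 libraries, and the count was still 0. zbtb16a, a hormone-induced zinc finger gene, was the 1 member of 8 at that level for 60 against 30 minutes, at -0.41 (SE 0.17). Over all genes 6.34% were lower there. The glucocorticoid receptor gene NR3C1 gave 0.02 (SE 0.16) for 120 against 30 minutes (-0.01 without the 4 libraries), and the hormone-induced genes tsc22d3 and klf9 gave -0.32 (SE 0.21) and -0.23 (SE 0.31).

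Genes outside the lists were named for the smallest p of their direction, so their values describe that choice. Among the other 9 genes named as lower at 120 against 30 minutes, the groups did not overlap for nuak2, si:dkey-61m24.1 and dlgap1b. Over all genes 0.457% were separated in that direction, and a choice by small p favours such genes. nuak2, an AMPK-related kinase gene, had 11.5, 7.69, 8.16, 9.31 and 7.4 cpm at 30 minutes and 6.56, 3.40, 4.70, 5.02 and 4.99 cpm at 120 minutes, with a log2 fold change of -0.83 (SE 0.18). si:dkey-61m24.1 had 2.48, 3.10, 2.28, 2.98 and 2.30 cpm at 30 minutes, 0.653, 0.594, 1.04, 0.945 and 0.305 cpm at 60 minutes and 0.729, 1.09, 0.757, 1.47 and 1.15 cpm at 120 minutes, so that all later fish lay under all 30 minute fish. It had the smallest p of all genes for 60 against 30 minutes, with a log2 fold change of -1.90 (SE 0.31) and an adjusted p of 0.312. dlgap1b, a postsynaptic scaffold gene, gave -0.29 (SE 0.09), and -0.16 without the 4 libraries that stood apart. Of the 30 minute fish, fish 12 had 37.9 cpm of it and the others 26.2 to 27.8 cpm. The remaining genes were otud7b, a deubiquitinase gene, at -0.80 (SE 0.19), inpp4ab, a lipid phosphatase gene, at -0.33 (SE 0.10), padi2, a protein citrullination enzyme found in myelin-forming cells, at -0.71 (SE 0.22), anp32e (2 of 2), a histone chaperone gene, at -0.20 (SE 0.06), and1, an actinodin gene of fin folds, at -0.60 (SE 0.19), and MAMDC4, described below.

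Of the 10 genes named as higher at 120 against 30 minutes, mrps11 and cep135 did not overlap between the groups. Over all genes 71 of 17082 were separated in that direction, and the choice by small p favours such genes here too. mrps11, which encodes a protein of the mitochondrial ribosome, had 10.1, 10.5, 9.66, 10.1 and 7.96 cpm at 30 minutes, 14.8, 12.7, 15.4, 13.9 and 16.2 cpm at 60 minutes and 11.0, 13.5, 13.4, 12.8 and 15.7 cpm at 120 minutes. Both later groups lay above the 30 minute fish, with log2 fold changes of 0.46 (SE 0.11) at 120 and 0.59 (SE 0.11) at 60 minutes (adjusted p = 0.425, edgeR). cep135, a centriole gene, gave 0.32 (SE 0.08), and sfi1, a centrosome gene, 0.79 (SE 0.18), with 1 fish of the 120 minute group (fish 20, 24.6 cpm) inside the 30 minute range of 19.8 to 26.3 cpm. cacng6a, a calcium channel subunit gene, gave 0.74 (SE 0.18). Genes of mitochondrial metabolism or import among the 10 were idh3a, described below, and timm17b at 0.39 (SE 0.12). galm, which encodes an enzyme of galactose use, gave 0.36 (SE 0.11), snrnp25, a minor spliceosome gene, 0.35 (SE 0.11), tmem18 0.35 (SE 0.09) and zfpm1, a GATA cofactor gene, 0.61 (SE 0.19). Of genes with no name, ENSGACG00000020519 was higher on the log2 scale by 0.65 (SE 0.14) with no overlap, ENSGACG00000018591 by 1.43 (SE 0.30) with overlap, and ENSGACG00000015775 was at -0.39 (SE 0.09) and ENSGACG00000002393 at -1.68 (SE 0.41), both with no overlap.

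In control fish, idh3a and MAMDC4 were each divided at the widest gap into a low and a high level between fish, also within a time. That pattern was picked out after their values were seen. idh3a (ENSGACG00000010244, group XIX, 11973704 to 11978272, plus strand), which encodes a subunit of the isocitrate dehydrogenase of the citric acid cycle, had 73.0, 19.0, 23.7, 23.6 and 22.0 cpm at 30 minutes, 62.5, 69.3, 70.1, 27.6 and 75.9 cpm at 60 minutes and 66.1, 79.9, 67.2, 75.1 and 71.3 cpm at 120 minutes. Low levels (19.0 to 27.6 cpm) were seen in 4 fish at 30 minutes, 1 at 60 and 0 at 120, and the other 10 fish had 62.5 to 79.9 cpm. The diencephalon of the same 5 low fish had 21.0 to 31.0 cpm, and that of the other 10 had 66.0 to 83.7 cpm. Challenged fish showed both levels too, at 64.9, 72.5, 65.1, 61.9 and 80.3 cpm at 30 minutes, 79.4, 66.8, 20.3, 20.8 and 74.6 cpm at 60 minutes and 66.2, 66.8, 70.7, 73.2 and 23.0 cpm at 120 minutes. All 5 challenged fish at 30 minutes were high, where 4 of 5 control fish were low. MAMDC4 (ENSGACG00000018113, group XIV, 11278595 to 11287976, minus strand), which encodes a membrane protein of apical endosomes, had 21.1, 6.34, 21.6, 21.8 and 22.2 cpm at 30 minutes, 22.0, 32.8, 18.2, 3.18 and 22.9 cpm at 60 minutes and 7.24, 2.61, 2.23, 3.44 and 1.76 cpm at 120 minutes. All 5 fish at 120 minutes and 1 fish at each earlier time (fish 12 and fish 27) were low, and the diencephalon of these 7 fish had 2.17 to 7.88 cpm, against 16.5 to 27.8 cpm in the other 8. Challenged fish had 20.6, 41.5, 14.6, 22.4 and 18.8 cpm at 30 minutes, 5.68, 20.9, 2.37, 19.7 and 19.1 cpm at 60 minutes and 37.5, 20.3, 42.7, 40.6 and 9.78 cpm at 120 minutes, so that 4 of 5 at 120 minutes were above 20 cpm, where all control fish were low. Among challenged fish, 9.78 and 14.6 cpm fell between the low and high control levels, and 37.5 to 42.7 cpm lay above both. The log2 fold change of MAMDC4 in control fish, -2.42 (SE 0.53) for 120 against 30 minutes, therefore compares sets of fish that differed in both regions. Whether the split comes with time or with the fish drawn for each time cannot be told apart in this design.

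**Figure D4:**
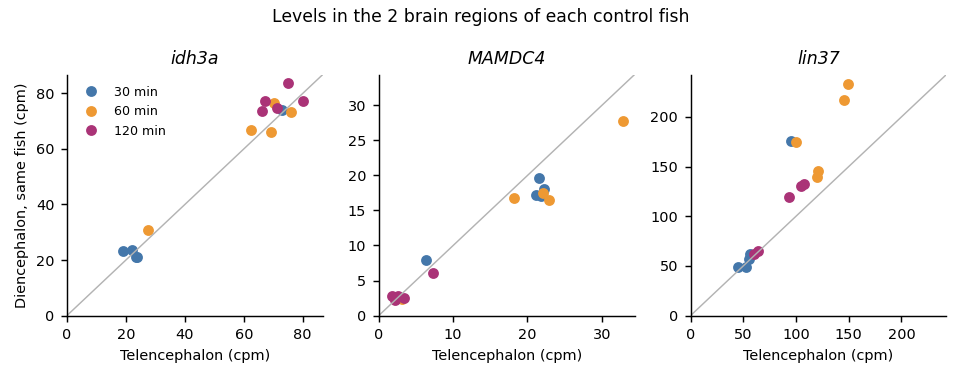
Levels in telencephalon (horizontal axis, cpm) and diencephalon (vertical axis, cpm) of the same 15 control fish for idh3a, MAMDC4 and lin37, coloured by time, with the line of equal levels. For idh3a the 5 low fish (19.0 to 27.6 cpm in telencephalon) are low in both regions, and for MAMDC4 so are the 7 low fish.

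For 60 against 30 minutes, the count of genes at an unadjusted p under 0.05 was the highest of the 3 comparisons with all 15 libraries and was under that of 120 against 60 minutes without the 4 that stood apart. Of the 40 photoreceptor and retina genes tested, 34 were higher at 60 minutes and 0 lower, beside 5.61% and 6.34% of all genes, with a median log2 fold change of 3.94. Without fish 35 the count was 8. In refits without single fish, here and below, the share over all genes was not counted. Leaving out all 4 libraries that stood apart, 6 of 32 tested were higher, beside 531 of 16879 genes, with a median of 1.5. For 120 against 30 minutes 2 of 40 were higher with all libraries, beside 1.57% of all genes. Without the 4 libraries 10 of 32 were higher, beside 411 of 16879 genes. That refit kept fish 20 (120 minutes), whose photoreceptor sum was 253.8 cpm, against 30.0 to 82.7 cpm in the other 120 minute fish. It left out fish 12 and 17, at 64.3 and 65.6 cpm among the higher sums of the 30 minute fish. The part of these fish in the count was not tested. The medians were 1.30 and 1.45 in turn. Of 34 synaptic and neuronal signalling genes, 12 were lower and 0 higher for 60 against 30 minutes, beside 6.34% lower over all genes, with a median of -0.24. Those counts were 8 lower and 0 higher without the 4 libraries, beside 579 lower of 16879 genes, with a median of -0.19. Leaving out single fish moved the count of lower genes from 1 (without fish 27) to 22 (without fish 3), again with no share over all genes counted. nlgn2b, a synaptic adhesion gene, gave -0.28 (SE 0.10), and nrxn1a, its presynaptic partner, -0.27 (SE 0.10). Of 19 epithelial and skin genes (of 20 listed), 12 were lower at 120 than at 30 minutes, beside 2.22% of all genes, and without fish 17, or without the 4 libraries, the count was 0. Diencephalon and midbrain genes, 18 of 43 of which could be tested, held 3 lower at 120 than at 30 minutes, and without fish 12, or without the 4 libraries, the count was 0. Among these, avp and oxt, the vasotocin and isotocin neuropeptide genes of the preoptic area, reached 413 and 528 cpm in fish 12, and their lowest values over all fish were 1.87 and 0.201 cpm.

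Among the genes named for 60 against 30 minutes was RING1, a Polycomb ubiquitin ligase gene, which had 76.1, 79.3, 82.3, 76.9 and 81.1 cpm at 30 minutes, 106, 101, 91.2, 86.0 and 107 cpm at 60 minutes and 82.8, 81.6, 82.0, 82.9 and 83.0 cpm at 120 minutes. The 60 minute fish lay above all others, and the log2 fold change was 0.31 (SE 0.06) for 60 against 30 minutes. TATDN3, which encodes a nuclease-like protein, gave 0.52 (SE 0.10), and lin37, a subunit gene of the cell cycle repressor DREAM, 1.05 (SE 0.21). lin37 had 55.4, 45.3, 56.6, 52.8 and 95.7 cpm at 30 minutes, 99.6, 121, 149, 145 and 120 cpm at 60 minutes and 60.3, 107, 105, 63.9 and 92.9 cpm at 120 minutes, with all 60 minute fish above all 30 minute fish and a wide spread at 120. uhrf1bp1l gave -0.35 (SE 0.06), the adenylyl cyclase gene ADCY9 (1 of 2) -0.34 (SE 0.07), the pacemaker channel gene HCN2 (2 of 2) -0.52 (SE 0.11) and IQSEC1 (2 of 2), a synaptic Arf exchange factor gene, -0.35 (SE 0.08). si:ch211-114l13.9 (8 of 22), 1 of many near copies among which reads may be split, had 0.0413, 0.0403, 0.138, 0.0597 and 0.128 cpm at 30 minutes and 4.32, 2.76, 1.34, 1.25 and 1.05 cpm at 60 minutes. Every 60 minute fish was above every 30 minute fish, and its fitted log2 fold change of 4.62 (SE 0.86) starts from levels near 0.

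The genes named as higher at 120 against 60 minutes had log2 fold changes of 0.27 to 0.69, with SEs of 0.05 to 0.17. acap3b, an Arf GTPase activator gene, had 119, 128, 118, 120 and 121 cpm at 30 minutes, 110, 118, 107, 105 and 101 cpm at 60 minutes and 124, 127, 135, 133 and 132 cpm at 120 minutes. The 120 minute fish lay above all 60 minute fish, with a log2 fold change of 0.27 (SE 0.05) (adjusted p = 0.425, edgeR). C2CD3, a centriole gene, gave 0.32 (SE 0.07), C20orf194 0.38 (SE 0.09), FRMD5 (1 of 2) 0.37 (SE 0.09) and TRPM6, a magnesium channel gene, 0.69 (SE 0.17). On the other side stood fos, EGR4 (1 of 2), egr2b, MAMDC4 and anp32e (2 of 2), the last at -0.28 (SE 0.06). So 3 of the 5 genes with the smallest p among named genes lower at 120 than at 60 minutes were activity-regulated transcription factors. That list of 23 was itself drawn from the 1791 named genes, with earlier results of these data known. The 3 are therefore not independent support for the list.

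The diencephalon of the same 15 fish gave similar values for fos. It had 23.7, 20.6, 21.7, 21.9 and 15.4 cpm at 30 minutes, 20.9, 20.0, 29.3, 22.5 and 10.6 cpm at 60 minutes and 13.9, 11.8, 10.1, 13.9 and 8.22 cpm at 120 minutes. The 120 minute fish lay under all 30 minute fish, with a log2 fold change of -0.84, and fish 35 was low at 60 minutes in this region. For 120 against 60 minutes, 11 of the 22 activity-regulated transcription factors tested there were lower at an unadjusted p under 0.05 and 0 higher. Over all 17256 genes there, 3.35% were lower and 461 genes were higher. For 120 against 30 minutes 6 were lower and 0 higher, beside 2.16% and 1.47% of all genes. Of the 9 effectors in diencephalon, 0 were lower and 0 higher at that level in either comparison. The test of the region difference in the change from 30 to 120 minutes called 0 of 17507 genes (edgeR), with 150 at an unadjusted p under 0.05. For fos the difference was 0.06 on the log2 scale (unadjusted p = 0.83). With the fish as a block, since both regions come from the same fish, 0 genes were called and 504 had an unadjusted p under 0.05. All 10 genes named as lower at 120 than at 30 minutes in telencephalon also had negative values in diencephalon, 8 of them at an unadjusted p under 0.05 beside 2.16% of all genes. All 10 named as higher had positive values, 5 of them at that level beside 1.47%. The 2 regions are not independent, since the fish are the same and a fish with a low idh3a level in one region had it in the other.

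Challenged fish are other animals, sampled at the same times. No gene was called in control telencephalon, so the planned count over called genes had no members, and the 20 named genes are given instead. Of the 10 named as lower in control fish, 1 had a negative value in challenged telencephalon for 120 against 30 minutes, and over all genes there 46.8% were negative. That gene was fos. Of the 10 named as higher, 2 had positive values, beside 9050 of 17014 genes there. Names came from the study's gene tables, and many genes stand there because they responded to the challenge in these same fish. The choice of genes thus favours a difference between the treatments, so these counts are not an independent comparison. fos had 47.8, 61.7, 46.0, 40.2 and 56.6 cpm at 30 minutes in challenged fish, 18.0, 32.8, 32.2, 29.0 and 25.9 cpm at 60 minutes and 23.0, 15.6, 15.2, 17.0 and 28.0 cpm at 120 minutes. The 30 minute challenged fish lay above all control fish at any time, while at 120 minutes the 2 treatments overlapped. The log2 fold change for 120 against 30 minutes was -1.35 in challenged fish, with an adjusted p of 0.287 (edgeR).

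Many activity-regulated transcription factors were lower at 120 minutes in challenged fish too. Against 30 minutes 10 of the 23 were lower and 2 higher at an unadjusted p under 0.05, beside 1.56% and 1.96% of all genes, and against 60 minutes 10 were lower and 1 higher, beside 2.62% and 3.94%. The 9 effectors did not share this: 0 were lower and 1 higher against 30 minutes, and 1 lower and 2 higher against 60. The test of the treatment difference in the change from 30 to 120 minutes called 0 of 17247 genes (edgeR, smallest adjusted p = 0.8), with 698 at an unadjusted p under 0.05. Without fish 20 it called 1 gene, sfi1, with a difference of 1.1 on the log2 scale and an adjusted p of 0.0778. In that test 5 of the 23 had a value above 0 at an unadjusted p under 0.05, where the control value minus the challenged value is positive, beside 1.66% of all genes, and 3 a value under 0, beside 2.38%. For fos the difference, control minus challenged, was 0.56 (unadjusted p = 0.0225, adjusted p = 1.00, edgeR). For npas4a it was 0.20 (unadjusted p = 0.511), and for the effector gadd45g it was -1.08 (unadjusted p = 9.77e-04), and gadd45g had a log2 fold change of 0.58 in challenged fish.

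**Figure D5:**
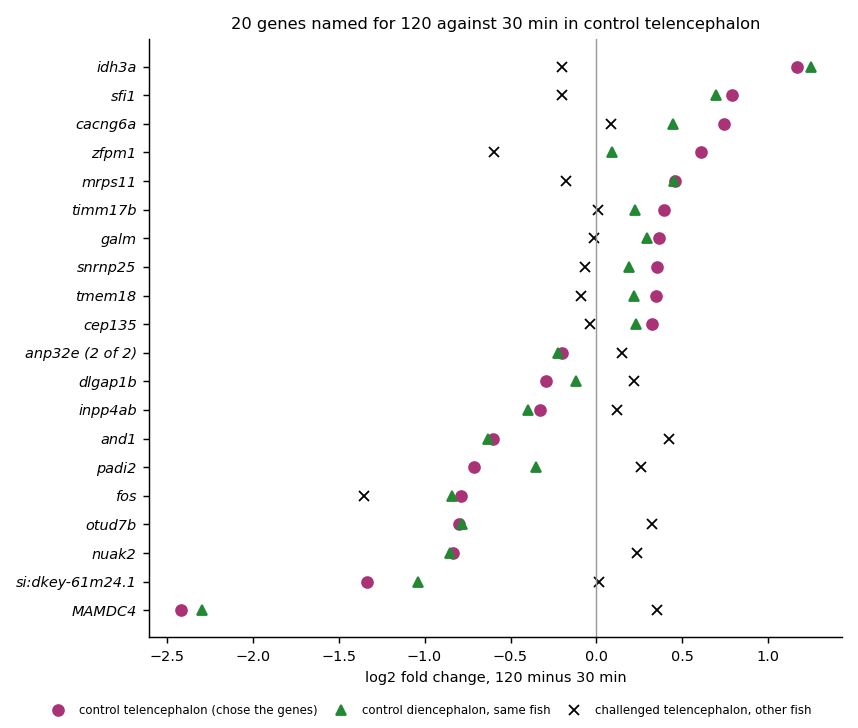
Log2 fold change from 30 to 120 minutes of the 20 genes named in control telencephalon (circles), beside the diencephalon of the same fish (triangles) and the telencephalon of challenged fish (crosses). Triangles share the side of the circles for all 20 genes, while fos at -1.35 is the only 1 of the 10 lower genes with a cross under 0. Names came from tables that hold many genes responding to the challenge in these fish, so the crosses are not an independent comparison.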

How the data were processed

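Telencephalon and diencephalon of male sticklebacks were sequenced as poly-A libraries with a directional kit, single-end. The authors trimmed reads (Trimmomatic), aligned them with TopHat2 2.0.8 to the repeat-masked genome and counted them per gene of Ensembl release 75 with HTSeq 0.6.1, leaving out reads that fell in several genes. Base calls came from CASAVA 1.8.2, per the submitters' processing notes. The deposited raw counts were used as they stand, and 0 columns were left out for want of a sample. A deposited table of cpm was not used. The strand setting of the counting is not given in the sources used here.

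Counts of the 15 control telencephalon libraries were fitted in edgeR 4.0.16 (R 4.3.3) with time as 3 groups, TMM scaling and the quasi-likelihood test, keeping each gene that reached 1 cpm in 2 or more libraries. The Benjamini-Hochberg adjustment took the 3 comparisons together, with a threshold of 0.1. The SE is the log2 fold change divided by the square root of F. Single genes were also tested by an exact permutation test on log2 cpm (prior count 2, SciPy 1.17.1, Python 3.11.15). Region and treatment differences were interaction terms over 30 libraries each. Alternatives were DESeq2 1.42.0 (its likelihood ratio test for the joint comparison), edgeR's likelihood ratio test, other filters, covariates and samples, and leaving out each fish. The code was tested on simulated data. The figures were drawn with matplotlib 3.10.9.

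Genes with a name were taken by rule: the 10 of smallest p in each direction for 120 against 30 minutes, the 5 in each direction for the other comparisons, all members of the activity, clock and corticosteroid lists, of other lists up to 4 members of smallest p, and at most 2 unnamed genes of each direction. A name came from the study's gene tables for 1791 of 17536 genes, and the reference table matched 0 by Ensembl identifier. The members and lists were chosen with earlier results of these data known.

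Depth ran from 18178450 to 49230351 counts per library. No replicate pair agreed within sampling noise. Fish numbers in the labels tie both regions to one animal, and this number was the replicate block of the region comparison. No fish was sampled at more than 1 time.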

Additional observations from a re-analysis of the deposited data

Results flagged for a closer look

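Some fish lay far from the other 4 of their time. Of 186 groups of 5 values examined, 29 (15.6%) had an end value whose gap to its nearest neighbour, divided by the range of the group, was above 0.71. About 1 in 20 would be so for independent groups of normally distributed values. These groups share fish and are on the cpm scale, so 15.6% cannot be read against that rate. Fish 12 (30 minutes) had 1040 cpm summed over the diencephalon and midbrain identity genes (the others 28.7 to 226.5), most of it from avp and oxt. Its levels were 6.34 cpm for MAMDC4 (the others 21.1 to 22.2) and 37.9 cpm for dlgap1b (the others 26.2 to 27.8). Fish 12 also had 128.1 cpm for acap3b (the others 118.2 to 120.8), 23.1 cpm for jund (the others 17.1 to 18.7) and 4.81 cpm for klf4 (the others 0.947 to 1.87). Fish 12 also had 92.2 cpm for nptx2b (the others 1.64 to 7.98). Fish 8 (60 minutes) had 2267 cpm summed over the microglia and leukocytes genes (the others 473.9 to 643.8), 5.24 cpm for fosl1a (the others 0.542 to 0.859) and 37.4 cpm for junba (the others 20.1 to 24.8). Fish 8 also had 49.5 cpm for cebpb (the others 3.59 to 7.34), 48.8 cpm for ZFP36, an mRNA decay factor gene, (the others 14.6 to 23.9) and 82.1 cpm for nfkbiaa (the others 25.8 to 33.0). Fish 10 (120 minutes) had 123.2 cpm summed over the diencephalon and midbrain identity genes (the others 27.4 to 42.2), 1078 cpm summed over the microglia and leukocytes genes (the others 473.6 to 575.4) and 86.7 cpm for REM2 (1 of 2), a small GTPase gene, (the others 104.5 to 108.8). Fish 17 (30 minutes) had 1877 cpm summed over the epithelium and skin genes (the others 230.1 to 593.2), 5.88 cpm for otud7b (the others 10.1 to 11.5) and 8.39 cpm for nfkbiz, an NF-kappa-B regulator gene, (the others 0.640 to 1.57). Fish 5 (30 minutes) had 73.0 cpm for idh3a (the others 19.0 to 23.7) and 59.3 cpm for galm (the others 47.4 to 50.5). Fish 27 (60 minutes) had 27.6 cpm for idh3a (the others 62.5 to 75.9) and 4.94 cpm for egr2b (the others 1.71 to 2.03). Fish 35 (60 minutes) had 1845 cpm summed over the photoreceptor and retina genes (the others 51.5 to 183.7) and 134.9 cpm summed over the skeletal and heart muscle genes (the others 26.1 to 41.3). Fish 3 (60 minutes) had 14.6 cpm for zfpm1 (the others 9.08 to 10.7). Fish 15 (60 minutes) had 199.5 cpm summed over the diencephalon and midbrain identity genes (the others 26.3 to 63.7). Fish 20 (120 minutes) had 253.8 cpm summed over the photoreceptor and retina genes (the others 30.0 to 82.7). Fish 32 (120 minutes) had 7.52 cpm for fosb (the others 14.5 to 16.3).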

How the results depend on the processing

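Alternatives were run gene by gene for the genes named by p and the activity and clock members at an unadjusted p under 0.05, for 120 against 30 and 120 against 60 minutes, and none of these reversed direction. For 60 against 30 minutes genes were refitted only without the 4 libraries. Among values near 0 outside these, fosl2 went to -0.08 and NR3C1 to -0.01 for 120 against 30 minutes without the 4 libraries. Counts of called genes, 0 in each comparison by edgeR's quasi-likelihood test, were 7, 9 and 7 (120 against 30, 60 against 30 and 120 against 60 minutes) and 41 in the joint test by its likelihood ratio test, and 22, 69, 41 and 109 by DESeq2. Adjusting within each comparison called 1 gene, fos, for 120 against 30 minutes. Leaving out each fish gave 0 to 1 called genes for 120 against 30, for 120 against 60 and jointly (fos, without fish 35), 0 to 0 for 60 against 30 and for the region difference, and 0 to 1 for the treatment difference (sfi1, without fish 20). With the fish number as a replicate block, which pairs the regions, the region difference had 0 called genes. Of list members at an unadjusted p under 0.05, transcription factors lower at 120 than at 30 minutes (5) were 3 in a nested model over 30 libraries and 3 to 7 without single fish. Those higher at 60 than at 30 minutes (5) were 4 to 8, and those lower at 120 than at 60 (14) were 10 to 15. Effectors lower at 120 than at 60 minutes (5) were 2 with the library index in the model, 3 with the library total, 3 with the 10 libraries of the compared times alone, 3 in the nested model, 1 without the 4 libraries that stood apart, and 1 to 5 without single fish. Photoreceptor genes (34) were 22 by DESeq2, 7 with at least 1 cpm in 10 libraries, 13 with the index, 6 without the 4 libraries, and 8 to 36 without single fish. Synaptic genes (12) were 2 with the library total, 4 with the 10 libraries alone, and 1 to 22 without single fish. Epithelial genes (12) were 7 with the stricter filter, 0 with the index, 1 with the total, 6 with the 10 libraries alone, 0 without the 4 libraries, and 0 to 16 without single fish. Diencephalon and midbrain genes (3) were 1 with the stricter filter, 0 with the index, 0 with the total, 1 with the 10 libraries alone, 1 in the nested model, 0 without the 4 libraries, and 0 to 4 without single fish. The cause was not tested beyond the smaller number of libraries or genes each construction leaves. Except without the 4 libraries, the share over all genes at an unadjusted p under 0.05 was not counted in these alternatives. A change in a list count therefore cannot be set beside the change over all genes. Counting members and leaving out the 4 libraries were chosen after seeing the data. The 30 minute libraries were deepest, and 5 fish a time limit the precision.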

Other observations

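Genes of inhibitory neurons, which make up much of the subpallium, had summed levels of 1834 to 2543 cpm and 0 of 11 tested members at an unadjusted p under 0.05 for 120 against 30 minutes (edgeR). Without the 4 libraries that stood apart 2 were higher, beside 411 of 16879 genes. gad2, which encodes an enzyme of GABA synthesis, had a log2 fold change of -0.24 for 60 against 30 minutes (unadjusted p = 0.00947, edgeR), and 1 of the 11 was lower there, beside 6.34% of all genes. Without the 4 libraries gad2 was at -0.13 and 0 of the 11 were lower. Of 14 neuropeptide and receptor genes tested, 1 was higher and 2 lower at 120 than at 30 minutes, beside 1.57% and 2.22% of all genes. The counts were 0 higher and 1 lower without the 4 libraries, beside 411 and 546 of 16879 genes. gnrhr1, a gonadotropin-releasing hormone receptor gene, had 13.8, 15.4, 10.7, 15.9 and 14.6 cpm at 30 minutes and 17.3, 15.8, 30.4, 15.1 and 24.6 cpm at 120 minutes. The groups overlapped, and the log2 fold change was 0.55. scg2a, which encodes a secretogranin of dense core vesicles, gave -0.33.

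Hypoxia and glucose supply genes had 0 of 9 members at an unadjusted p under 0.05 for 120 against 30 minutes and 2 higher for 60 against 30, beside 5.61% of all genes. The refit without the 4 libraries had 1 of 8 higher in each, beside 411 and 531 of 16879 genes in turn. Fish 35, the fish with high photoreceptor genes, had 50.1 cpm of ndrg1b, a stress-induced gene, and 9.22 cpm of the glucose transporter gene slc2a1a. The log2 fold change of ndrg1b for 60 against 30 minutes was 4.94, and 3.15 without the 4 libraries (unadjusted p = 0.0526, edgeR). irf1b, an interferon-induced transcription factor gene, was at 92.3 cpm in fish 8 and at 103.4 cpm in fish 15, against 17.5 to 22.5 cpm in the other 60 minute fish, so fish 15 was high for it without the leukocyte genes of fish 8. Of 10 pituitary genes 1 could be tested, gpha2, which had 0.598 to 2.58 cpm. The other pituitary genes are not in that range.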
